A study of Mus musculus with 26 samples.

Results

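Glycolysis is the chain of cytosolic enzymes that splits glucose into pyruvate, and the genes described here are 34 genes of that chain and of the response to HIF1A, the oxygen-regulated transcription factor. The 34 genes were given as a list of names, chosen with earlier results of these data known. All 34 are among the 24848 genes of the deposited tables. They comprise Hif1a itself, 2 glucose transporters, the enzymes from hexokinase to lactate dehydrogenase with their isoenzymes, 2 lactate transporters, pyruvate dehydrogenase and its kinase, and HIF1A targets outside glycolysis. HIF1A protein is marked for destruction by prolyl hydroxylases while oxygen is present, and when it is spared it raises transcription of glucose transporters, glycolytic enzymes and the lactate exporter MCT4. In T cells the same genes are raised by antigen receptor and mTOR signalling, and effector cells rely more on glycolysis than resting cells do. Pyruvate dehydrogenase kinase, the product of Pdk1, limits the use of pyruvate in mitochondria, and lactate dehydrogenase A turns pyruvate into lactate.

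RNA was sequenced from 2 kinds of CD4 T cell, Foxp3+ regulatory T cells (Treg) and Foxp3- conventional T cells (Tconv), sorted out of C57BL/6 mice from central nervous system (CNS) or from draining lymph nodes (dLN). All mice had active experimental autoimmune encephalomyelitis (EAE), a model of multiple sclerosis, were sampled at day 14 and received tamoxifen from day 7 to day 14. Control mice (Ctrl) were labelled Foxp3Cre-ERT2, a tamoxifen-activated Cre recombinase driven by the Foxp3 gene, and knockout mice (icKO) were labelled Foxp3Cre-ERT2 x Tnfrsf1bFlox/Flox, so that the gene of the TNF receptor TNFR2 could be cut in Foxp3-expressing cells only; Tconv cells of icKO mice were not themselves the target. The groups held 3 libraries each of CNS Treg Ctrl, CNS Treg icKO, dLN Treg Ctrl, dLN Treg icKO, dLN Tconv Ctrl and dLN Tconv icKO, and 4 each of CNS Tconv Ctrl and CNS Tconv icKO. The labels number the mice within a group but do not say whether a library held 1 mouse or a pool, and the p-values measure the spread between these libraries.

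The library labelled dLN Tconv icKO replicate 3 stood apart: it listed 6005 genes above 0, against 11089 to 14259 in the other 25, and 10 of the 34 genes were at 0 in it, against at most 1 in each of the other 5 dLN Tconv libraries. Its markers also differed from those of its group: Foxp3 was at 14.7 CPM of the library total, Tnfrsf1b at 3.22, the macrophage and monocyte markers at 2857 and the neutrophil markers at 2917, so its identity is in doubt wherever a value from 26 libraries is given. Values below come from the other 25 libraries, so that dLN Tconv icKO has n = 2, and values from all 26 libraries stand beside the genotype results. Total expected counts ran from 12.4 to 18.5 M in the 25 libraries. Tnfrsf1b transcripts were at 642 to 646 CPM (the usual depth-scaled count, here of the unscaled library total) in dLN Treg icKO and 778 to 902 in dLN Treg Ctrl, and at 322 to 496 in CNS Treg icKO and 449.9 to 681 in CNS Treg Ctrl. Neither difference passed the test, and the labels do not say which exons were flanked. The 5 T cell markers found in the tables summed to 4133 to 6445 CPM in the 25 libraries, and Foxp3 was at 22.6 to 67.5 CPM in Treg libraries and at most 1.47 in the 13 Tconv libraries used. CNS Treg libraries also carried RNA of other cells. The sum of 12 macrophage and monocyte markers was 4692 to 7189 CPM in CNS Treg Ctrl and 4639 to 5647 in CNS Treg icKO, against 152 to 1059.7 in dLN Treg Ctrl and 7.64 to 269 in CNS Tconv libraries of either genotype, and no marker of the list was at 0 in any CNS Treg library.

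Unless TPM is named, levels are CPM after TMM scaling by edgeR. Differences are log2 fold changes with their standard error (SE) from edgeR's quasi-likelihood test over all 13500 genes that passed its filter, and a gene was called at a Benjamini-Hochberg adjusted p under 0.05. All 34 genes passed the filter. In these bulk samples fewer cells of a type and less RNA per cell cannot be told apart.

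The upstream sequence of the genes was read first, because many of them share a short motif. HIF1A pairs with ARNT on a core written ACGTG or GCGTG, of which only ACGTG was searched. CACGTG, which contains ACGTG, is the E-box read by MYC and related factors. In the 250 bases upstream of RefSeq start sites (build GRCm38.p6), ACGTG on either strand occurred in 20 of 46 windows of the listed genes (43.5%), and in 16.6% of all 32851 windows. Windows existed for 32 of the 34 genes, and 17 of these had at least 1 match; CACGTG was in 13% of their windows and 6.02% of all windows. A match describes the letters and is not a measured binding site. The windows below belong to Hif1a, to the 2 genes with the largest rise in the results that follow, and to the 2 lactate dehydrogenases. Capitals mark ACGTG or its reverse complement CACGT, and each window reads 5′ to 3′ on the strand of the gene.

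Hif1a, chr12:73907617-73907866, plus strand: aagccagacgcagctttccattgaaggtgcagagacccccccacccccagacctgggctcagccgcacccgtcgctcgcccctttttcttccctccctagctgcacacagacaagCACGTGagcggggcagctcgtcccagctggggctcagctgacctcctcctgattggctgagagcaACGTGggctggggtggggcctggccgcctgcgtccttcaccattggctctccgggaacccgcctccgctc
Hk2, chr6:82774455-82774704, minus strand: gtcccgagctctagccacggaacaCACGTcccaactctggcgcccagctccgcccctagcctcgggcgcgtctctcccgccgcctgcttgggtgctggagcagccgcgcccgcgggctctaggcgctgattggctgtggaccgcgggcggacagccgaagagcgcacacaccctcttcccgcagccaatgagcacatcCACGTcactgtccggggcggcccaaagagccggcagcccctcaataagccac
Slc16a3, chr11:120948817-120949066, plus strand: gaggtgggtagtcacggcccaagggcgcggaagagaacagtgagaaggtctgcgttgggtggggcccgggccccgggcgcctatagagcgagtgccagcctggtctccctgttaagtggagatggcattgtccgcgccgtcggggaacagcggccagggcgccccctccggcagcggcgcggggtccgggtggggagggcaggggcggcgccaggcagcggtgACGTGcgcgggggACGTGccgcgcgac
Ldha, chr7:46845554-46845803, plus strand: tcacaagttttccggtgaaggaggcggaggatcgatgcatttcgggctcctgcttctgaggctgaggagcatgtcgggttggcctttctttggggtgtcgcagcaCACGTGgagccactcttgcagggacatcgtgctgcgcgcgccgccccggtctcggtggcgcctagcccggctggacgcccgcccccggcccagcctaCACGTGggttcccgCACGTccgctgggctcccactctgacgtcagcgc
Ldhb, chr6:142507958-142508207, minus strand: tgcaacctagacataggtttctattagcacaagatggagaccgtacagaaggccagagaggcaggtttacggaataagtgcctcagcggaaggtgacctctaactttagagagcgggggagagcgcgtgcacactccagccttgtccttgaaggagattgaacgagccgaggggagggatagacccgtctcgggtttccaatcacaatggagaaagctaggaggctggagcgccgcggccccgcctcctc

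The window of Ldha, the lactate-forming isoenzyme, held 2 ACGTG and 3 CACGT, and that of Hif1a held 2 and 1. Each CACGTG counts as both, so these 2 windows hold fewer separate sites than matches. The windows of Hk2 and Slc16a3 held 2 separate matches each, and the window of Ldhb, the isoenzyme that favours pyruvate, held none. A further RefSeq start of Ldha has a window without a match. In the GENCODE M21 annotation of GRCm38 the Hif1a gene spans chr12:73901375-73947530, Hk2 chr6:82725025-82774454, Slc16a3 chr11:120948480-120960868, Ldha chr7:46841475-46855627 and Ldhb chr6:142490249-142507957, so the windows of Hif1a, Slc16a3 and Ldha lie inside spans that begin at an earlier start.

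In conventional T cells of the CNS, Tconv cells from icKO mice held more RNA of Hif1a, of both glucose transporters, of 5 enzymes between glucose and pyruvate and of the lactate exporter Slc16a3 than those from Ctrl mice, and less of Ldhb. Of the 34 genes, 9 rose and 1 fell, 29.4% in all, where 1.58% of all genes rose and 1.53% fell (3.1% of 13500 were called). Because the list was chosen with earlier results of these data known, its share beside that of all genes is a description and not a test. The median log2 fold change was 0.36 over the 34 genes and 0.00 over all genes tested. A total of 26 of the 34 fold changes were positive. All values of this comparison are those of Tconv cells, in which the Tnfrsf1b gene was not targeted.

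These calls depended on the libraries used. With all 26 libraries in the fit, 1 of the 34 genes was called, Hif1a, which was higher, where 0.0383% of all genes were higher and 0.0536% lower (0.0919% called). The names of 5 of the 8 CNS Tconv tables carry a prefix that marks the other genotype in the other 3 populations: Ctrl replicates 3 and 4 and icKO replicates 2, 3 and 4. Groups follow the sample labels, and without these 5 libraries, which leaves 2 Ctrl libraries against 1 icKO library that is assumed to vary like the other groups, 2 of the 34 genes (Hif1a and Ldhb) and 1.12% of all genes were called. Whether the labels or the table names are right was not tested. Leaving out Ctrl replicate 1, Ctrl replicate 3, icKO replicate 1, icKO replicate 3 or icKO replicate 4 gave 5 called genes, and leaving out Ctrl replicate 2 gave 6.

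Hif1a encodes the oxygen-regulated subunit of HIF1. In Ctrl libraries Hif1a stood at 358, 403, 506 and 749 CPM, and in icKO libraries at 1522, 969, 1663 and 1654. The lowest icKO library lay above the highest Ctrl library. Hif1a rose by 1.53 ± 0.28 (adjusted p = 0.00609), and by 1.52 ± 0.29 (adjusted p = 0.0461) with 26 libraries; it was called in all 17 alternatives tried, 1 of which has a single icKO library. Among the 3 libraries whose deposited names match their labels the values were 358 and 403 for Ctrl and 1522 for icKO. In the 5 others the labels give 506 and 749 for Ctrl and 969, 1663 and 1654 for icKO. The order of the groups holds only under the sample labels. Under the table names, Ctrl would hold 358, 403, 969, 1663 and 1654 and icKO 1522, 506 and 749, which overlap. In the other populations Hif1a did not pass the genotype test. For Hif1a in CNS Treg cells, the Ctrl libraries gave 553, 1249.8 and 959 CPM and the icKO libraries 1053, 388 and 1054. Ctrl values of Hif1a in dLN Treg cells were 529, 511 and 493 CPM, and icKO values were 439, 528 and 621. Levels of Hif1a in dLN Tconv cells were 402, 325 and 315 CPM in Ctrl and 280.3 and 355 in icKO libraries.

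The glucose transporters GLUT1 (Slc2a1) and GLUT3 (Slc2a3) rose to about the same degree. Slc2a1 had 73.2, 73.5, 93.5 and 106 CPM in Ctrl and 155, 141, 214 and 192 CPM in icKO libraries. Slc2a3 was at 71.1, 119, 107 and 141 CPM in the Ctrl libraries and at 198, 234, 206 and 269 in the icKO libraries. For each gene all 4 icKO libraries were above all 4 Ctrl libraries. Slc2a1 rose by 1.02 ± 0.26 (adjusted p = 0.0335) and Slc2a3 by 1.05 ± 0.19 (adjusted p = 0.00488). Their adjusted p with 26 libraries was 0.276 and 0.192. The share of Slc2a3 in the summed TPM of the pair was 44.2% ± 5.39 (SD, n = 4) in Ctrl and 45.3% ± 5.56 in icKO libraries, and the ranges overlapped.

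Hexokinases trap glucose in the cell as its phosphate. In Ctrl libraries Hk2 stood at 5.53, 8.14, 5.03 and 7.57 CPM, and in icKO libraries at 28.8, 21.9, 36.2 and 33.7. For Hk1, the Ctrl libraries gave 289, 318, 275 and 344 CPM and the icKO libraries 387, 408, 383 and 406. Hk2, the inducible isoenzyme, had the larger fold change of the pair from a level far below that of Hk1, and neither gene's groups overlapped. Hk2 rose by 2.20 ± 0.36 (adjusted p = 0.00295) and Hk1 by 0.37 ± 0.09 (adjusted p = 0.0318). With 26 libraries their adjusted p was 0.28 and 0.47. On the TPM scale, which corrects for transcript length, Hk2 made up 1.56% ± 0.24 of the pair in Ctrl and 5.39% ± 1.16 in icKO libraries (SD, n = 4). In dLN Tconv libraries it was 0.667% ± 0.341 in Ctrl (SD, n = 3) and 0.328% and 0.897% in the 2 icKO libraries. Hk1 has exons that overlap the antisense gene Hk1os, and the library kit keeps no strand, so reads of the 2 genes cannot be told apart. Gpi1, the isomerase that follows, was not called (0.29 ± 0.11, adjusted p = 0.174). Ctrl values of Gpi1 were 466, 462, 450.3 and 435 CPM, and icKO values were 524, 486, 599 and 608.

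Phosphofructokinase commits sugar phosphate to glycolysis and is built from 3 kinds of subunit. Levels of Pfkp were 362, 371, 376 and 350.3 CPM in Ctrl and 533, 606, 616 and 596 in icKO libraries. Pfkl had 187, 173, 145 and 185 CPM in Ctrl and 209, 239, 256 and 265 CPM in icKO libraries. Pfkm was at 2.58, 7.69, 7.58 and 13 CPM in the Ctrl libraries and at 8.57, 7.21, 6.15 and 5.46 in the icKO libraries. Pfkp rose by 0.69 ± 0.17 (adjusted p = 0.0347); its adjusted p with 26 libraries was 1. Pfkl did not pass the test although its groups did not overlap (0.49 ± 0.17, adjusted p = 0.116), and Pfkm was near the bottom of the range with overlapping groups. Exons of Pfkp overlap Pitrm1 on the other strand, and exons of Pfkm overlap Senp1. The bifunctional regulators Pfkfb3 and Pfkfb4, which set the level of an activator of phosphofructokinase, did not pass the test, with log2 fold changes of 0.27 and -0.36.

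Aldolase splits the sugar into triose phosphates, and among it and the triose steps 1 gene was called. In Ctrl libraries Tpi1 stood at 245, 276, 242 and 319 CPM, and in icKO libraries at 507, 423, 716 and 565. Tpi1, triose phosphate isomerase, rose by 1.03 ± 0.26 (adjusted p = 0.0372), with an adjusted p of 0.2 with 26 libraries, and its exons overlap Spsb2 on the other strand. For Aldoa, the Ctrl libraries gave 1179, 948, 962 and 985 CPM and the icKO libraries 1376, 1254, 1804 and 1531. Ctrl values of Aldoc were 2.36, 5.35, 10.4 and 13.5 CPM, and icKO values were 18.9, 13.1, 14.1 and 12.4. Aldoa had groups that did not overlap and an adjusted p of 0.065, and Aldoc, present at a far lower level, had overlapping groups. Pgk1, which makes the first ATP of the pathway, and Pgam1 also had groups without overlap, with log2 fold changes of 0.77 and 0.79 and adjusted p of 0.0558 and 0.0776. For Gapdh the log2 fold change was 0.41, the adjusted p was 0.172 and the groups overlapped. Gapdh, Pgk1, Pgam1, Tpi1, Aldoa, Ldha and Eno1 have close copies elsewhere in the genome, so the split of reads that RSEM made among copies is uncertain for them.

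Enolase and pyruvate kinase are the last steps before pyruvate. Levels of Pkm were 1919.8, 1873, 1556 and 1689.7 CPM in Ctrl and 2352, 2608, 2732 and 2414 in icKO libraries. Eno1 had 1561, 1259.9, 1159.9 and 1162 CPM in Ctrl and 1542, 1739, 1781 and 1697 CPM in icKO libraries. Eno2 was at 0, 0.502, 0.947 and 0.227 CPM in the Ctrl libraries and at 0, 0.331, 0 and 0 in the icKO libraries. Pkm rose by 0.52 ± 0.14 (adjusted p = 0.0397), with an adjusted p of 0.209 with 26 libraries, and every icKO library was above every Ctrl library. Eno1 had the Ctrl replicate 1 library inside the icKO range and did not pass the test (adjusted p = 0.198). Eno2, the neuronal enolase, was at or near 0 and bears no direction.

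Of the lactate dehydrogenase genes Ldhb fell and Ldha did not pass the test. In Ctrl libraries Ldhb stood at 50.1, 36.3, 35.3 and 43.5 CPM, and in icKO libraries at 13, 24.2, 14.3 and 17.3. For Ldha, the Ctrl libraries gave 2461, 2326, 2066 and 2071 CPM and the icKO libraries 2676, 2695, 3237 and 2795. All 4 icKO libraries lay below all 4 Ctrl libraries for Ldhb, and above them for Ldha. Ldhb fell (-1.27 ± 0.19, adjusted p = 0.00111), the smallest adjusted p of the 34 genes, and its adjusted p with 26 libraries was 0.9. The difference in Ldha was smaller (0.35 ± 0.13, adjusted p = 0.152). The share of Ldhb in the summed TPM of the 2 genes was 2.36% ± 0.30 in Ctrl and 0.787% ± 0.267 in icKO libraries (SD, n = 4), so Ldha made up nearly all of the pair in both groups.

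Monocarboxylate transporters carry lactate across the cell membrane; Slc16a3 encodes MCT4, which mainly exports it, and Slc16a1 encodes MCT1. Ctrl values of Slc16a3 were 21.1, 20.5, 18 and 37 CPM, and icKO values were 70.0, 77.6, 134 and 106. Levels of Slc16a1 were 38.7, 52.6, 71.7 and 70.9 CPM in Ctrl and 75.9, 73.4, 58.7 and 70.8 in icKO libraries. Slc16a3 was higher in every icKO library than in any Ctrl library, while Slc16a1 overlapped. Slc16a3 rose by 2.01 ± 0.37 (adjusted p = 0.00609), with an adjusted p of 0.473 with 26 libraries, and Slc16a1 did not pass the test (0.25 ± 0.19, adjusted p = 0.51). Slc16a3 thereby went from 43.1% ± 8.52 of the summed TPM of the pair in Ctrl to 70.8% ± 8.0 in icKO libraries (SD, n = 4).

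**Figure D1:**
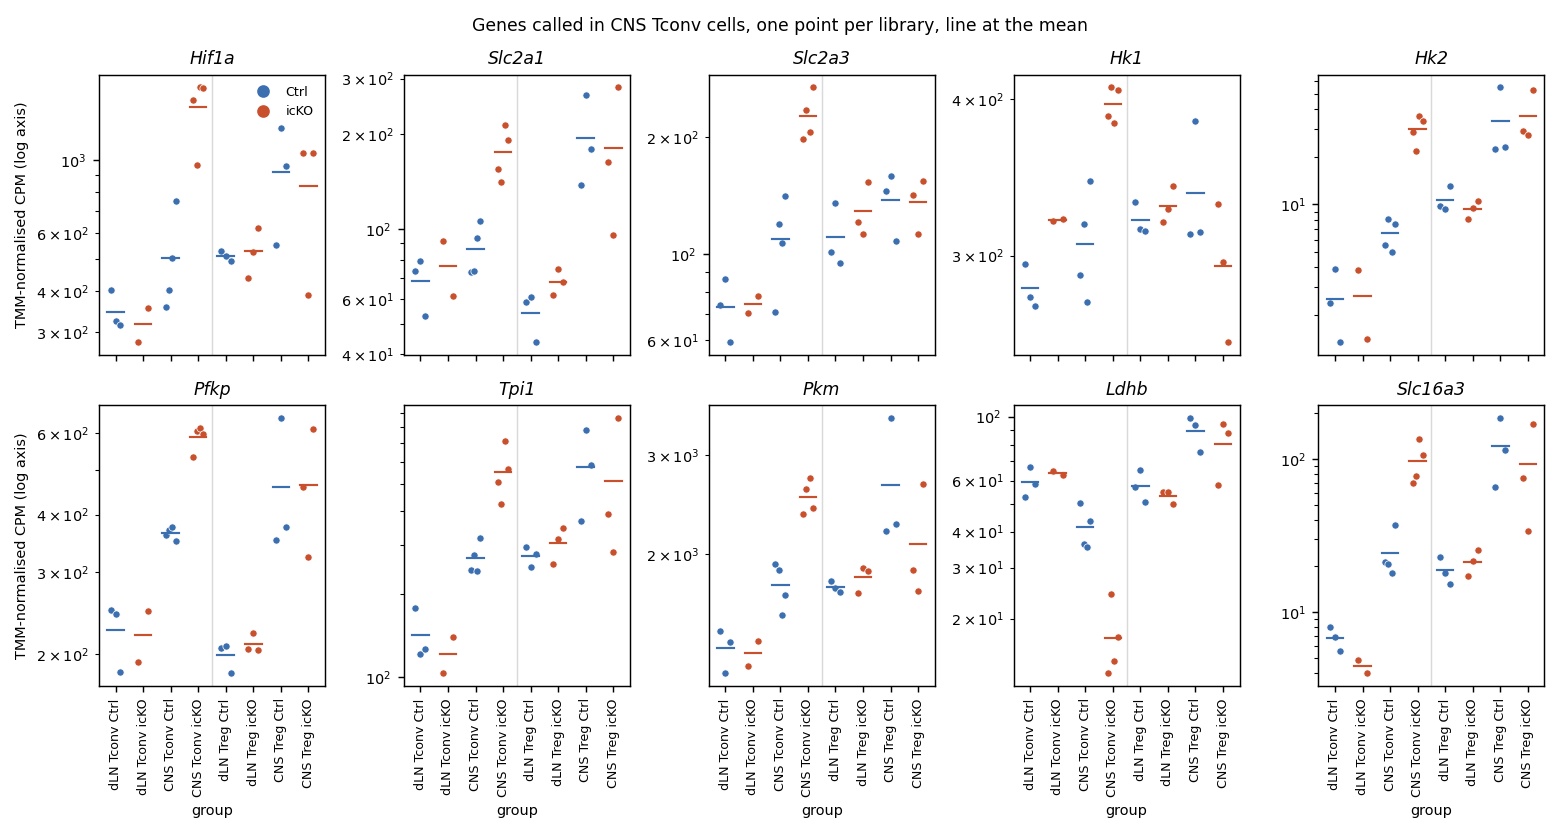
TMM-normalised CPM on log axes of the 10 genes called in CNS Tconv cells, 1 point per library in each of the 8 groups (blue Ctrl, orange icKO) with a line at the group mean. In CNS Tconv the icKO libraries are above the Ctrl libraries without overlap in 9 panels and below them in the Ldhb panel, for example 969 to 1663 against 358 to 749 CPM for Hif1a.

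**Figure D2:**
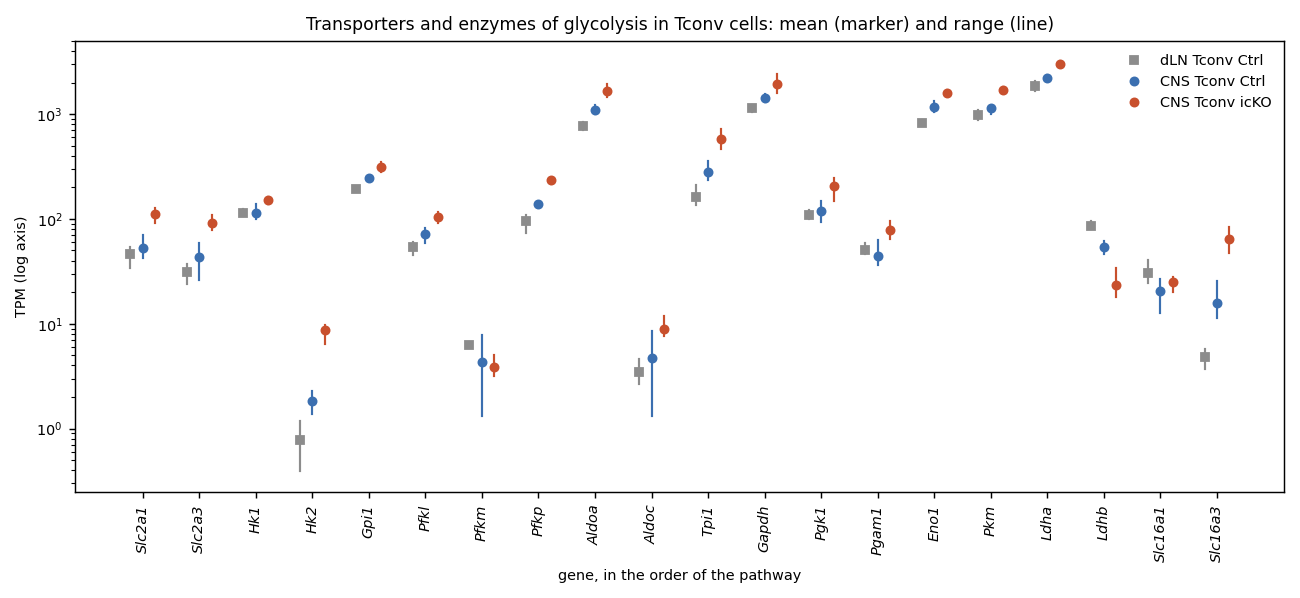
TPM on a log axis of transporters and enzymes in the order of the pathway, with the mean (marker) and range (line) over dLN Tconv Ctrl (grey), CNS Tconv Ctrl (blue) and CNS Tconv icKO (orange) libraries. Ldha is the highest gene shown in each group, and Hk2, the lowest in both Ctrl groups, averages 1.82 TPM in CNS Tconv Ctrl and 8.62 in CNS Tconv icKO.

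Genes around pyruvate and outside glycolysis did not pass the test in CNS Tconv cells, and some varied widely within a group. Pdk1 had 20.0, 59.4, 105 and 292 CPM in Ctrl and 91.4, 56.1, 72.7 and 79.4 CPM in icKO libraries. Pdk1, the pyruvate dehydrogenase kinase, thus spanned more than the difference between genotypes in the Ctrl group alone. Pdha1, a subunit of pyruvate dehydrogenase, ranged from 151 to 194 CPM over both groups. Egln1 was at 151, 121, 159 and 78.1 CPM in the Ctrl libraries and at 34.4, 190.4, 31.2 and 183 in the icKO libraries. For Egln1, the main HIF prolyl hydroxylase, the icKO libraries fell into a low pair and a high pair that bracketed the Ctrl libraries. In Ctrl libraries Egln3 stood at 14.5, 14.5, 10.9 and 26 CPM, and in icKO libraries at 29.9, 7.28, 22.5 and 11.5. For Bnip3, the Ctrl libraries gave 9.29, 11.9, 9.47 and 17.9 CPM and the icKO libraries 9.48, 11.6, 17 and 17.2. Ctrl values of Bnip3l were 275, 243, 219 and 199.7 CPM, and icKO values were 193, 203, 182 and 184. Egln3, an inducible hydroxylase, and the mitophagy receptors Bnip3 and Bnip3l overlapped between genotypes. Higd1a, Mif and P4ha1, a mitochondrial protein, a cytokine and a collagen prolyl hydroxylase, had log2 fold changes of 0.12, 0.27 and 0.26. Vegfa, the endothelial growth factor, was at 0 in 5 of the 8 libraries and at most 1.98 CPM.

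Groups did not overlap for 15 genes that were higher and 1 that was lower in CNS Tconv icKO (8.47% of all genes did not overlap). Besides the 10 called genes these were Gpi1, Pfkl, Aldoa, Pgk1, Pgam1 and Ldha, with adjusted p from 0.0558 to 0.174. On the TPM scale the 17 enzymes from hexokinase to lactate dehydrogenase summed to 8144 ± 515 in CNS Tconv Ctrl and 11656 ± 784 in CNS Tconv icKO libraries (SD, n = 4), with ranges of 7445 to 8623 and 10970.5 to 12740. The same sum was 6442 ± 602 in dLN Tconv Ctrl (SD, n = 3). Ldha, the most abundant of them, averaged 2239 TPM in CNS Tconv Ctrl and 2985 in CNS Tconv icKO.

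Beside the change in these genes, other marker lists were read in the same 8 libraries. The macrophage and monocyte sum was 7.64 to 213 CPM in Ctrl and 39.7 to 269 in icKO libraries, with overlap. The neutrophil sum was at most 3.63 CPM in any of the 8. The sum of the 6 Treg markers was 712 to 1064 in Ctrl and 1112 to 1418 in icKO libraries, without overlap, while Foxp3 was 0.408 to 1.47 CPM in Ctrl and 0.121 to 0.424 in icKO. Tnfrsf1b was at 170.2 to 229 CPM in Ctrl and 265 to 367 in icKO libraries, and was called higher (0.72 ± 0.14, adjusted p = 0.0091). Its CNS genotype effect was also called more positive in Tconv than in Treg cells (1.31 ± 0.22, adjusted p = 0.0243). The part of these markers and of Tnfrsf1b in the result was not tested.

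**Figure D3:**
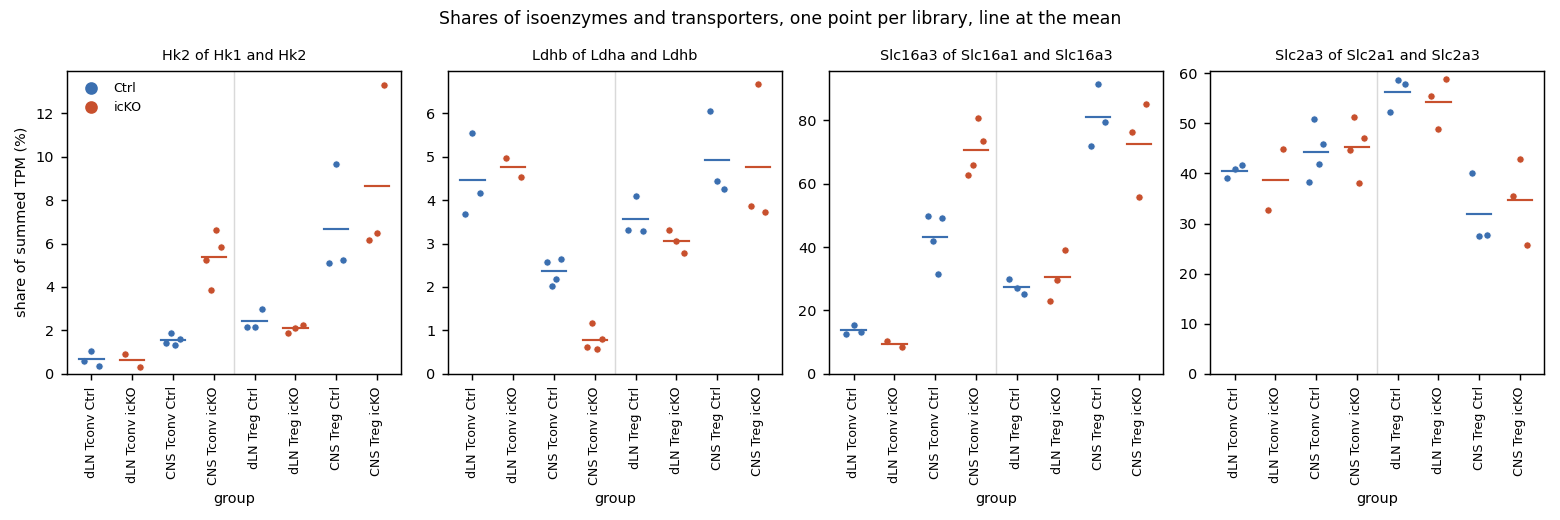
Share (%) of 1 isoenzyme or transporter in the summed TPM of its pair, 1 point per library in each of the 8 groups (blue Ctrl, orange icKO) with a line at the group mean. In CNS Tconv the Hk2 share goes from 1.56 to 5.39%, the Ldhb share from 2.36 to 0.787% and the Slc16a3 share from 43.1 to 70.8%, while the Slc2a3 share overlaps between genotypes.

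Within Treg cells, where TNFR2 was targeted, none of the 34 genes was called between icKO and Ctrl in either tissue by edgeR, DESeq2 or limma (0% of all genes were called by edgeR, with 25 or 26 libraries). In CNS Treg cells 1 gene had an unadjusted p under 0.05, Pkm (-0.35 ± 0.16, adjusted p = 0.717). Of all 13500 genes tested, 915 did. Levels of Pkm in CNS Treg cells were 2199, 3487 and 2261 CPM in Ctrl and 1869.8, 1719 and 2659 in icKO libraries. Hk1 in CNS Treg cells had 312, 384 and 313 CPM in Ctrl and 329.8, 296 and 256 CPM in icKO libraries. Pfkl was at 223, 373 and 227 CPM in the Ctrl libraries and at 182, 173 and 291 in the icKO libraries in CNS Treg cells. Hk1 and Pfkl came next, with log2 fold changes of -0.19 ± 0.11 and -0.35 ± 0.19. For none of the 34 genes were the groups free of overlap (7.59% of all genes did not overlap). The median log2 fold change of the 34 genes was -0.09, against 0.00 over all genes tested. In each group 1 library held most of the highest values: Ctrl replicate 2 was highest in its group for 25 of the 34 genes, and icKO replicate 3 for 25 in its own. In Ctrl libraries Slc16a3 in CNS Treg cells stood at 66, 185 and 114 CPM, and in icKO libraries at 74.7, 33.6 and 169. For Hk2 in CNS Treg cells, the Ctrl libraries gave 22.6, 55 and 23.2 CPM and the icKO libraries 29, 27.4 and 52.7. For both genes the spread within each group was wider than the difference between them. The summed TPM of the 17 enzymes was 10822 ± 2202 in Ctrl and 9204 ± 2065 in icKO libraries (SD, n = 3). The 8 markers of CD8 T and NK cells summed to 148 to 179 CPM in CNS Treg Ctrl and 295 to 613 in icKO, without overlap, and their part in these values was not tested.

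In dLN Treg cells 0 of the 34 genes had an unadjusted p under 0.05 (146 of all 13500 genes did). Of the 34, 5 had icKO libraries that were all higher (8.76% of all genes did not overlap). Ctrl values of Aldoc in dLN Treg cells were 9.17, 10.6 and 9.94 CPM, and icKO values were 17.6, 16.7 and 14.2. Levels of Egln1 in dLN Treg cells were 33.7, 16 and 16.2 CPM in Ctrl and 57.9, 25.9 and 31.4 in icKO libraries. Gpi1 in dLN Treg cells had 386, 388 and 375 CPM in Ctrl and 411, 433 and 465 CPM in icKO libraries. These 3 had the smallest p, with log2 fold changes of 0.71 ± 0.45, 0.80 ± 0.54 and 0.19 ± 0.13 and edgeR adjusted p of 1. In dLN Tconv cells 0 of the 34 genes were called by edgeR, DESeq2 or limma (0% of all genes by edgeR). An unadjusted p under 0.05 was found for 1 of them (197 of all 13500 genes). Egln1 was at 109, 46 and 78.4 CPM in the Ctrl libraries and at 32.7 and 27.7 in the icKO libraries in dLN Tconv cells. In Ctrl libraries Hk1 in dLN Tconv cells stood at 296, 278 and 273 CPM, and in icKO libraries at 319.7 and 321. For Slc16a3 in dLN Tconv cells, the Ctrl libraries gave 7.97, 6.86 and 5.55 CPM and the icKO libraries 4.88 and 4. Their log2 fold changes were -1.37 ± 0.62, 0.18 ± 0.12 and -0.61 ± 0.52 with adjusted p of 1, on 3 Ctrl and 2 icKO libraries. With 5 genes higher and 3 lower, 8 of the 34 did not overlap there, against 16.4% of all genes.

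The difference between genotype effects was tested directly for 2 pairs of populations. For the CNS genotype effect in Tconv against that in Treg cells, 0 of the 34 genes were called (0.178% of all genes), while 15 had an unadjusted p under 0.05. Of all 13500 genes tested, 2026 did. The smallest adjusted p were those of Slc16a3 (2.40 ± 0.56, adjusted p = 0.0649), Pkm (0.87 ± 0.21, adjusted p = 0.0677) and Hk1 (0.56 ± 0.14, adjusted p = 0.0754), and Hif1a had 1.67 ± 0.43 (adjusted p = 0.078). DESeq2 called 8 of the genes and limma 0, and leaving out 1 library gave counts of 0 to 6. The count was 1 without CNS Treg Ctrl replicate 1 or 3 or CNS Tconv icKO replicate 2, and 3 without CNS Treg icKO replicate 1. It was 6 without CNS Treg icKO replicate 3 or CNS Tconv Ctrl replicate 4. The share of all genes called in these alternatives is not given, so these counts alone do not show whether calls shifted in general. For the Tconv genotype effect in CNS against dLN, 0 genes were called (0% of all genes) and 11 had an unadjusted p under 0.05 (1101 of all 13500 genes did). The smallest adjusted p was that of Ldhb (-1.37 ± 0.29, adjusted p = 0.181). DESeq2 called 3 and limma 1, and edgeR called 1 without CNS Tconv icKO replicate 2. A larger effect in CNS Tconv cells than in the other populations was therefore not shown by edgeR's test.

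Between tissues, the CNS libraries of both cell types held more RNA of many of the 34 genes than the dLN libraries. In Ctrl Treg cells 18 genes were higher and 2 lower in the CNS, where 13.3% of all genes were higher and 8.55% lower (21.8% called). The median of the 34 was 0.62 against 0.02 over all genes tested. The smallest p were those of Slc2a1, Slc16a3, Aldoa, Pfkp, Bnip3 and Pfkl. CNS values of Slc2a1 in Treg cells were 138, 265 and 179 CPM, and dLN values were 58.6, 60.6 and 43.7. Levels of Slc16a3 in Treg cells were 66, 185 and 114 CPM in CNS and 22.9, 18.1 and 15.2 in dLN libraries. Bnip3 in Treg cells had 20.2, 68.8 and 53 CPM in CNS and 5.11, 8.18 and 10.6 CPM in dLN libraries. For these 3 every CNS library was above every dLN library. Slc2a1 was higher by 1.84 ± 0.30 (adjusted p = 0.000248), Slc16a3 by 2.69 ± 0.44 (adjusted p = 0.000249) and Bnip3 by 2.57 ± 0.46 (adjusted p = 0.000496). Aldoa, Pfkp and Pfkl were higher by 1.13 ± 0.19, 1.21 ± 0.20 and 1.01 ± 0.19 on the log2 scale (edgeR adjusted p of 0.000267, 0.000297 and 0.000975). The 2 lower genes were Slc16a1 (-1.04 ± 0.23, adjusted p = 0.00244) and Pdha1 (-0.38 ± 0.12, 0.0270). Without CNS Treg Ctrl replicate 2, 13 genes were called. With 26 libraries 9 were called, where 4.1% of all genes were higher and 1.65% lower (5.75% called).

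Members that did not pass the test in this comparison included Hif1a, Slc2a3, Hk1, Gapdh, Pgk1, Pgam1 and Ldha. Ldha was at 1985, 2610.0 and 2211 CPM in the CNS libraries and at 2166, 1977 and 1928 in the dLN libraries in Treg cells. In CNS libraries Pgk1 in Treg cells stood at 113, 196 and 184 CPM, and in dLN libraries at 188, 154 and 173. Ldha overlapped between tissues, as did Pgk1. For Vegfa in Treg cells, the CNS libraries gave 4.12, 24.9 and 14.8 CPM and the dLN libraries 0, 0.33 and 0. CNS values of Pfkfb4 in Treg cells were 27.4, 23.2 and 21 CPM, and dLN values were 3.06, 5.35 and 5.89. Vegfa and Pfkfb4 were called, and with Vegfa at or near 0 in the dLN its fitted fold depends on the prior count and is not given. The macrophage and monocyte markers, the microglia markers (1532 to 2121 CPM in CNS Treg, 93.6 to 146 in dLN Treg) and the neutrophil markers (104 to 927 against 0.667 to 10.7) moved with the tissue in the same libraries. Their part in the tissue difference of Treg cells was not tested. In icKO Treg cells 14 genes were higher and 1 lower in the CNS (13.1% and 9.41% of all genes, 22.5% called), and all 15 were among the 20 called in Ctrl Treg cells. The smallest p there were those of Pfkp (1.14 ± 0.20, adjusted p = 0.000398), Slc16a3 (2.11 ± 0.43, 0.00147), Hk2 (1.95 ± 0.41, 0.00165), Aldoa (0.90 ± 0.19, 0.00165), Slc2a1 (1.40 ± 0.30, 0.00187) and Bnip3l (0.56 ± 0.12, 0.00253). With 26 libraries 2 genes were called, where 3.74% of all genes were higher and 1.41% lower (5.15% called).

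**Figure D4:**
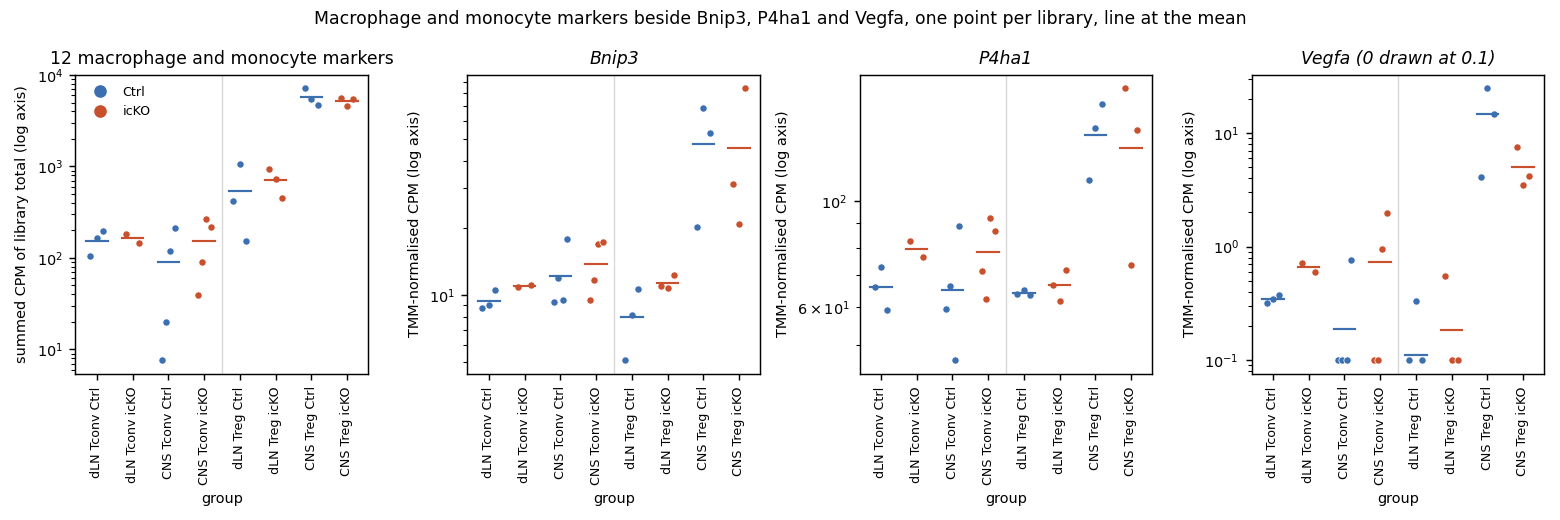
Summed CPM of 12 macrophage and monocyte markers (left, CPM of the library total) and TMM-normalised CPM of Bnip3, P4ha1 and Vegfa on log axes, 1 point per library in each of the 8 groups with a line at the group mean. The marker sum is 4639 CPM or more in all 6 CNS Treg libraries and 1059.7 or less in all others, and Vegfa is above 3 CPM in the same 6 libraries only.

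In Tconv cells, whose macrophage and monocyte sums were 105 to 196 CPM in the dLN and 7.64 to 269 in the CNS, Ctrl libraries had 9 genes higher and 1 lower in the CNS (5.97% and 2.93% of all genes, 8.9% called). Levels of Slc16a3 in Tconv cells were 21.1, 20.5, 18 and 37 CPM in CNS and 7.97, 6.86 and 5.55 in dLN libraries. Aldoa in Tconv cells had 1179, 948, 962 and 985 CPM in CNS and 677, 585 and 654 CPM in dLN libraries. Eno1 was at 1561, 1259.9, 1159.9 and 1162 CPM in the CNS libraries and at 833, 778 and 818 in the dLN libraries in Tconv cells. For these 3 the tissues did not overlap. Slc16a3 was higher by 1.83 ± 0.43 (adjusted p = 0.0101), and Bnip3l, Gpi1, Aldoa, Eno1 and Pfkp by 0.46 ± 0.12, 0.48 ± 0.12, 0.67 ± 0.18, 0.67 ± 0.18 and 0.70 ± 0.19 with edgeR adjusted p from 0.0167 to 0.0251. The lower gene was Pdk1 (-1.54 ± 0.48, adjusted p = 0.0475). In CNS libraries Pdk1 in Tconv cells stood at 20.0, 59.4, 105 and 292 CPM, and in dLN libraries at 267, 383 and 390.2. CNS Ctrl replicate 4 reached the dLN range for Pdk1 and the other 3 did not. The table names of CNS Ctrl replicates 3 and 4 carry the prefix of the other genotype. Without the 5 libraries named otherwise, Hk2, Pfkp and Tpi1 lost their call in this comparison, and the other called genes kept it. The count moved with single libraries, as 1 gene was called without dLN Tconv Ctrl replicate 2, 2 without dLN replicate 3, 3 without dLN replicate 1 or CNS Tconv Ctrl replicate 1, 5 without CNS replicate 2, 6 without CNS replicate 3 and 0 with 26 libraries (1.1% of all genes). The Treg markers summed to 712 to 1064 CPM in the CNS and 279 to 352 in the dLN libraries, without overlap, and 3 of 6 Treg and 3 of 6 microglia markers were called higher in the CNS; their part was not tested.

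In icKO Tconv cells 18 genes were higher and 2 lower in the CNS (7.81% and 6.3% of all genes, 14.1% called), with a median of 0.77 against 0.00 over all genes. For Hk2 in Tconv cells, the CNS libraries gave 28.8, 21.9, 36.2 and 33.7 CPM and the dLN libraries 3.87 and 1.41. CNS values of Slc16a3 in Tconv cells were 70.0, 77.6, 134 and 106 CPM, and dLN values were 4.88 and 4. Levels of Ldhb in Tconv cells were 13, 24.2, 14.3 and 17.3 CPM in CNS and 65 and 62.7 in dLN libraries. The tissues did not overlap for any of the 3. The smallest p were those of Ldhb (-1.89 ± 0.21, adjusted p = 4.03e-06), Slc16a3 (4.44 ± 0.58, adjusted p = 1.84e-05), Hk2 (3.51 ± 0.51, adjusted p = 7.38e-05), Slc2a3 (1.61 ± 0.25, adjusted p = 0.000118), Pfkp (1.42 ± 0.23, adjusted p = 0.000181) and Tpi1 (2.18 ± 0.36, adjusted p = 0.000224). Hif1a was higher by 2.19 ± 0.38 (adjusted p = 0.000379). This comparison shares the CNS Tconv icKO libraries with the genotype comparison above and adds no independent libraries of that group. Without dLN Tconv icKO replicate 1 or 2, which leaves 1 dLN library assumed to vary like the other groups, 11 and 13 genes were called; 13 were called with 26 libraries, where 4.14% of all genes were higher and 5.09% lower (9.24% called), and 10 (4.59% of all genes) without the 5 CNS Tconv libraries named otherwise, which leaves 1 CNS library that is likewise assumed to vary like the other groups. With 26 libraries Slc16a3 had 1.49 ± 0.75 (adjusted p = 0.249), Ldhb -1.32 ± 0.77 (0.345) and Pfkp 1.99 ± 0.75 (0.101), so 3 of the 6 genes with the smallest p lost their call, while Hk2, Slc2a3, Tpi1 and Hif1a remained called. The Treg markers summed to 1112 to 1418 CPM in the CNS and 260 to 332 in the dLN libraries, without overlap, with 4 of 6 called higher, and 2 of 6 microglia markers were called higher; their part was not tested.

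The tissue difference was tested between the cell types in Ctrl mice, and 3 of the 34 genes had a more positive difference in Treg than in Tconv cells (2.55% of all genes, 3.67% called in either direction). These were Ldhb (1.16 ± 0.28, adjusted p = 0.0242), Slc2a1 (1.499 ± 0.40, adjusted p = 0.039) and Bnip3 (2.20 ± 0.60, adjusted p = 0.0426). Ldhb in Treg cells had 98.8, 93.6 and 75.5 CPM in CNS and 57.2, 65.1 and 50.5 CPM in dLN libraries. Ldhb was at 50.1, 36.3, 35.3 and 43.5 CPM in the CNS libraries and at 52.8, 66.8 and 58.6 in the dLN libraries in Tconv cells. Ldhb was higher in the CNS in Treg cells, and in Tconv cells its CNS libraries all lay below its dLN libraries without passing the test. The number called depended on single libraries: it was 0 without CNS Treg Ctrl replicate 2, dLN Treg Ctrl replicate 1 or 3, or dLN Tconv Ctrl replicate 2, 1 without CNS Tconv Ctrl replicate 2 or 3, dLN Treg Ctrl replicate 2, or dLN Tconv Ctrl replicate 1 or 3, and 6 without CNS Tconv Ctrl replicate 4. With 26 libraries it was 0 (0.0919% of all genes). The macrophage and monocyte markers moved with the CNS Treg group here too. CNS Tconv Ctrl replicates 3 and 4, used here, have table names with the prefix of the other genotype.

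Between cell types, Treg cells of the CNS held more RNA of 13 of the 34 genes than Tconv cells of the CNS in Ctrl mice and less of none (10.8% and 7.03% of all genes, 17.9% called). The smallest p were those of Hk2 (2.35 ± 0.38, adjusted p = 0.000143), Slc16a3 (2.33 ± 0.39, adjusted p = 0.000249), Ldhb (1.11 ± 0.19, adjusted p = 0.000321), P4ha1 (1.07 ± 0.22, adjusted p = 0.00149), Bnip3 (1.96 ± 0.41, adjusted p = 0.00163) and Slc2a1 (1.17 ± 0.27, adjusted p = 0.00436). Per library, the levels of Hk2, Slc16a3 and Ldhb are those given above, and for each of the 3 all CNS Treg Ctrl libraries were above all CNS Tconv Ctrl libraries. In Treg libraries P4ha1 stood at 111, 142 and 159 CPM, and in Tconv libraries at 59.6, 66.6, 46.5 and 88.7. P4ha1 did not overlap either. The macrophage and monocyte sums of the 2 groups differed as well, 4692 to 7189 against 7.64 to 213 CPM, and their part was not tested. Without CNS Treg Ctrl replicate 2, 8 genes were called, and with 26 libraries 6 (6.08% of all genes). The table names of CNS Tconv Ctrl replicates 3 and 4 carry the prefix of the other genotype. Pfkl and Pkm lost their call without the 5 libraries named otherwise, and the other called genes kept it.

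In the lymph node, where the sums were 152 to 1059.7 CPM in Treg and 105 to 196 in Tconv Ctrl libraries, 4 genes were higher and 2 lower in Treg cells (6.04% and 5.48% of all genes, 11.5% called). For Hk2, the Treg libraries gave 9.73, 9.37 and 13 CPM and the Tconv libraries 2.38, 3.91 and 1.35. Treg values of Pdk1 were 82.8, 97.7 and 97 CPM, and Tconv values were 267, 383 and 390.2. Levels of Tpi1 were 297, 251 and 279 CPM in Treg and 179, 122 and 126 in Tconv libraries. The cell types did not overlap for these 3. Hk2 was higher by 2.06 ± 0.42 (adjusted p = 0.00234), Gapdh by 0.69 ± 0.19 (adjusted p = 0.0163), Slc16a3 by 1.46 ± 0.44 (adjusted p = 0.0349) and Tpi1 by 0.95 ± 0.30 (adjusted p = 0.0446). Pdk1 (-1.91 ± 0.53, adjusted p = 0.0219) and Egln1 (-1.82 ± 0.55, adjusted p = 0.0323) were lower. Leaving out dLN Treg Ctrl replicate 1 or dLN Tconv Ctrl replicate 2 or 3 gave 2 called genes, and leaving out dLN Treg Ctrl replicate 2 or 3 gave 3, not all of them among the 6 without replicate 2. With 26 libraries 0 were called (1.8% of all genes), and limma called 14. Hk2, Slc16a3 and Tpi1 were called in both tissues between the cell types, and these comparisons share no library.

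**Figure D5:**
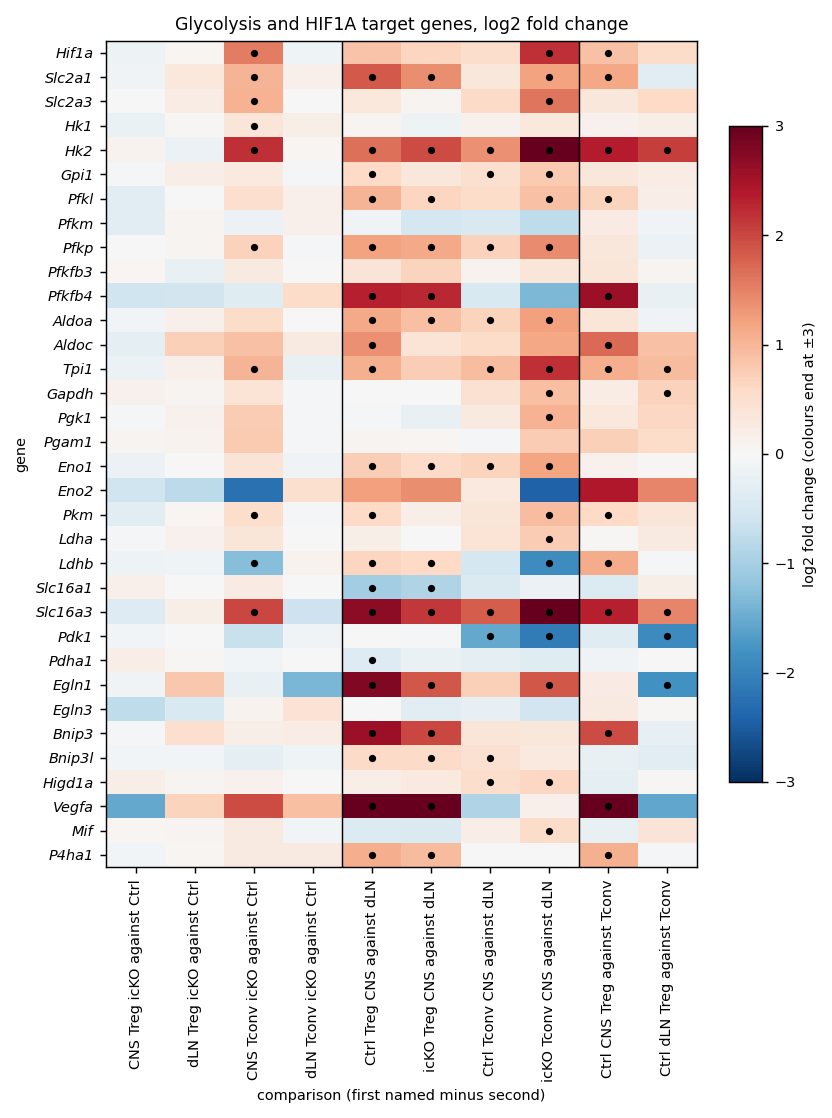
Log2 fold change (first group named minus second) of the 34 genes in the 10 comparisons of 2 groups, in colour from -3 to 3, with a dot where edgeR's adjusted p was under 0.05. The 4 genotype columns on the left hold 10 dots, all in CNS Tconv, and the 4 tissue columns hold 20, 15, 10 and 20.

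Levels set side by side on the TPM scale show what the cells mostly transcribed. In every group Ldha was the highest of the 34 genes (1838 to 2985 TPM as group means), and Gapdh, Pkm, Eno1, Aldoa and Mif made up the rest of the top 6. Vegfa and Eno2 were the lowest in all Tconv groups. Hk1 exceeded Hk2 in every group, Aldoa exceeded Aldoc, Ldha exceeded Ldhb, and Bnip3l exceeded Bnip3. Slc16a1 exceeded Slc16a3 in the 4 dLN groups, and Slc16a3 exceeded Slc16a1 in CNS Treg cells of both genotypes and in CNS Tconv icKO cells. Hif1a averaged 166.8 ± 68.9 TPM in CNS Tconv Ctrl and 491 ± 105 in CNS Tconv icKO libraries (SD, n = 4).

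Further genes of the same pathways came from lists chosen for this comparison, with earlier results of these data known. In CNS Tconv icKO against Ctrl, 3 of the 34 tested genes on a list of other hypoxia and HIF1A targets rose and 1 fell, with a list median of 0.48, where 1.58% of all genes rose and 1.53% fell. Ero1l, an oxidase of the endoplasmic reticulum, rose by 0.80 ± 0.17 (adjusted p = 0.0121) and Rora, a nuclear receptor, by 0.61 ± 0.16 (0.0373). Wsb1, a ubiquitin ligase subunit named after its value was seen, rose by 0.63 ± 0.17 (0.0495), and Plod1, a collagen lysyl hydroxylase, fell (-0.97 ± 0.19, 0.00889). Of 16 HIF pathway regulators 1 rose, Cul2, the scaffold of the VHL ubiquitin ligase (0.69 ± 0.19, 0.0477). None of the 22 tested genes of other glycolysis and sugar phosphate enzymes, 10 of the pentose phosphate pathway, 13 of pyruvate entry into mitochondria and 23 of the MYC, mTOR and AMPK axis was called by edgeR, with 2, 2, 2 and 6 at an unadjusted p under 0.05. Of all 13500 genes tested, 2437 had an unadjusted p under 0.05 there. In the other 3 genotype comparisons 0 genes of these 6 lists were called. In Ctrl Treg cells between tissues, the hypoxia list had 11 of 34 higher and 1 lower in the CNS, and the other glycolysis list 5 of 22 higher and 0 lower, where 13.3% of all genes were higher and 8.55% lower. The pentose phosphate list had 2 of 10 higher and 1 lower, pyruvate entry 0 and 1 of 13, HIF regulators 2 and 2 of 16, and the MYC, mTOR and AMPK axis 2 and 5 of 23. In the same libraries 10 of 12 macrophage and monocyte, 6 of 6 microglia and 4 of 5 neutrophil markers were higher in the CNS, and their part in the list counts was not tested. Of the other glycolysis genes, the 5 higher ones, named after their values were seen, were Hk3, Adpgk, Pgm2l1, Slc2a8 and Pygl, and Slc2a8, a glucose transporter, was higher by 1.11 ± 0.25 (adjusted p = 0.00291).

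Upstream motifs and calls were set side by side without a test. Of the 10 genes called in CNS Tconv cells 9 had a RefSeq window, and 5 of these held ACGTG: Hif1a, Slc2a1, Hk2, Pkm and Slc16a3. Hk1, Pfkp, Tpi1 and Ldhb held no ACGTG in this window. GCGTG, which was not searched, stands in windows of Hk1, Pfkp and Ldhb. Of all 32 listed genes with a window, 17 held ACGTG. Among them were Ldha, Pgk1 and Egln1, which were not called in CNS Tconv cells. The windows of Hk2 and Slc16a3 were printed because these genes rose most, so the printed windows cannot show whether matches go with the direction of change.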

How the data were processed

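RNA of sorted CD4 T cells was sequenced from SMART-Seq v4 and Nextera libraries, which keep no strand, in 26 libraries of 8 groups. Per the submitters' processing notes, reads were handled with FastQC, Trimmomatic, STAR 2.5.3a and RSEM 1.2.28 on mm10. The deposited tables give RSEM expected counts and TPM per gene, made by the authors and normalised within each library; the annotation is not given in the sources used here.

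Expected counts were rounded (8.34% of values were not whole), scaled by TMM, filtered with filterByExpr (13500 of 24848 genes) and tested with edgeR 4.0.16 (quasi-likelihood, 8 group means, 13 comparisons) in R 4.3.3. P-values were adjusted over all genes tested. The library labelled dLN Tconv icKO replicate 3 was left out (common dispersion 0.142 without it and 0.364 with it). TPM was used to compare genes with each other and for shares, with no test. On simulated counts for CNS Tconv icKO against Ctrl (13108 genes), 69% of 2-fold, 96% of 4-fold and 0.0542% of unchanged genes were called. Library totals of 12.4 to 18.5 M set the precision; low genes such as Vegfa and Eno2 carry few counts.

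Groups follow the sample labels. The 34 genes and all further lists were chosen with earlier results of these data known. Values per library were given for Hif1a, genes called between genotypes and isoenzyme or transporter pairs; in tissue and cell type comparisons up to 6 called genes with the smallest p were named, where none was called the 3 with the smallest p, and of each further list up to 3 called genes per genotype comparison. Alternatives were DESeq2 1.42.0, limma 3.58.1, other scaling, filters and sample sets, the replicate number as a block, and leaving out single libraries. RefSeq promoter windows (GRCm38.p6) were searched for motifs.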

Additional observations from a re-analysis of the deposited data

Results flagged for a closer look

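In groups of 4 libraries, 5 of 68 gene and group pairs held a library whose gap to its neighbour passed Dixon's 95% limit, where chance gives about 1 in 20. In CNS Tconv Ctrl, replicate 1 was high for Aldoa (1179 CPM) and low for Pdha1 (151 CPM), and replicate 4 was high for Slc16a3 (37.0 CPM) and for Vegfa (0.757 CPM, the others at 0). In CNS Tconv icKO, replicate 2 held 0.331 CPM of Eno2 and the others 0.

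The difference between CNS and dLN in Ctrl mice was more positive in Treg than in Tconv cells for Slc2a1 (by 1.499 on the log2 scale), Ldhb (1.16) and Bnip3 (2.20), by edgeR's test of the difference itself. Macrophage and monocyte markers were high in the same CNS Treg libraries, and their part in these 3 differences was not tested.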

How the results depend on the processing

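Numbers below are genes called out of the 34, and the cause of each change was not tested unless fewer samples account for it by construction. For DESeq2, limma, other filters and runs without 1 library, the share of all genes called is not given here or above. With all 26 libraries the counts were 1 for CNS Tconv icKO against Ctrl, 9 and 2 for tissue in Ctrl and icKO Treg, 0 and 13 for tissue in Ctrl and icKO Tconv, 6 and 0 for cell type in Ctrl CNS and dLN, and 0 for the Ctrl tissue difference between cell types. Fitting only the compared groups gave 6 for tissue in Ctrl Tconv, and 8 and 12 for cell type in CNS and dLN. With limma the cell type count in dLN was 14, the Tconv genotype difference between tissues 1 and the Ctrl tissue difference 7. With DESeq2 the CNS genotype difference between cell types was 8, the Tconv genotype difference 3 and the Ctrl tissue difference 6. A filter of 10 CPM in 3 libraries gave 2 for the CNS genotype difference. Without the 5 libraries named otherwise the counts were 2 for CNS Tconv icKO against Ctrl and 10 for tissue in icKO Tconv.

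Leaving out 1 library gave 5 to 13 for CNS Tconv icKO against Ctrl, 13 to 20 and 10 to 15 for tissue in Ctrl and icKO Treg, 1 to 10 and 11 to 19 for tissue in Ctrl and icKO Tconv, 8 to 15 and 2 to 4 for cell type in CNS and dLN, 0 to 6 for the CNS genotype difference, 0 to 1 for the Tconv genotype difference and 0 to 6 for the Ctrl tissue difference. The other 3 genotype comparisons stayed at 0 in each of these settings.

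Replicate numbers were not treated as pairs in the main fit. Same-number correlations of deviations from group means ran from -0.144 to 0.103 in the comparisons of 2 groups. Some libraries correlated best with their own number and others did not. With so few libraries per group, these correlations cannot show whether same-number libraries came from the same mouse. With the replicate block, 9 genes were called in CNS Tconv icKO against Ctrl and 6 for the Ctrl tissue difference, and 91 of 97 called results passed. Of the 97, 30 passed with 26 libraries, 97 with DESeq2, 93 with limma and 96 with DESeq2 size factors in edgeR, and none of the called results changed sign in any alternative run. Genes near 0 CPM, such as Eno2 and Vegfa, were too thinly counted in T cells of the dLN for a direction.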
